A study of Mus musculus with 12 samples.

Results

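Described here are 9 mouse genes, most of which encode paired immune receptors of myeloid cells, out of 54232 gene identifiers in each count file. The 9 are the CD300 family genes Cd300lf, Cd300a, Cd300lb, Cd300ld, Cd300c2 and the endothelial Cd300lg, the leukocyte gene Lst1, and the leukocyte immunoglobulin-like receptor genes Pirb and Lilrb4a. They were taken by symbol from a list, and all 9 were found once. All 9 passed the filter on low counts. Of these, Cd300lf and Lst1 were chosen by their p-value in Strain against TD in an earlier analysis of these libraries, so in comparisons with TD those 2 genes are described without a test. The other 7 joined the list by family, although with earlier results known.

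The libraries came from dorsal wounds of male mice of the C57BLKS/J strain that were homozygous for the db mutation of the leptin receptor gene, Lepr (db/db), which makes mice obese and diabetic. No library of lean or unwounded skin was part of these groups, so obesity and injury were common to every library. Mice were 12 weeks old at wounding and are labelled 12.5 weeks old, and a 6 mm punch through the whole skin was left to heal until tissue was collected on day 10. The group TD (5 libraries) had a Tegaderm film dressing alone. The group Strain (4 libraries) wore a patch that imposes about 30% strain, and the group No Strain (3 libraries) wore a patch that does not. Labels do not say whether any wounds shared a mouse, so p-values measure the spread between these libraries only.

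Paired receptors come in inhibitory and activating forms with similar outer parts. Inhibitory forms carry ITIM sequences in a long cytoplasmic tail, which recruit phosphatases such as SHP-1 (Ptpn6), while activating forms have short tails and signal through adaptors such as DAP12 (Tyrobp) and the Fc receptor gamma chain (Fcer1g). CD300 receptors bind membrane lipids, among them phosphatidylserine shown by dying cells, and in wounds the cells that carry them, chiefly neutrophils, monocytes and macrophages, clear debris and set the course of inflammation. In bulk tissue, fewer cells of a type and less RNA per cell cannot be told apart.

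Of the CD300 genes, 5 lie within 243952 bases of chromosome 11 (GRCm38, GENCODE M21 annotation): Cd300a (ENSMUSG00000034652, chr11:114890041-114904654, plus strand), Cd300lb (ENSMUSG00000063193, chr11:114922781-114934386, minus), Cd300ld (ENSMUSG00000034641, chr11:114982274-114989922, minus), Cd300c2 (ENSMUSG00000044811, chr11:114996721-115001880, minus) and Cd300lf (ENSMUSG00000047798, chr11:115116214-115133992, minus). Cd300lg (ENSMUSG00000017309, chr11:102041509-102055620, plus) lies elsewhere on that chromosome. Pirb (ENSMUSG00000058818) lies at chr7:3711409-3720391 on the minus strand, Lilrb4a (ENSMUSG00000112148) at chr10:51490956-51496611 on the plus strand and Lst1 (ENSMUSG00000073412) at chr17:35185095-35188439 on the minus strand. RefSeq promoter sequences (GRCm38.p6) were matched for 6 of the 9 genes. The 250 bases before the RefSeq gene start are printed for 4 of them, because these 4 genes had the contrasting patterns described next. Cd300lf was higher in both patch groups, Cd300c2 passed the test in No Strain and Cd300lb passed in neither. Pirb varied between libraries together with Cd300lb and Cd300c2. For Cd300lb and Pirb the RefSeq start lies inside the GENCODE span given above, so their windows overlap the end of that span. Capitals mark GAGGAA, or TTCCTC where it lies on the opposite strand, a core bound by the myeloid factor PU.1.
Cd300lf, GRCm38.p6 chr11:115133993-115134242, minus strand: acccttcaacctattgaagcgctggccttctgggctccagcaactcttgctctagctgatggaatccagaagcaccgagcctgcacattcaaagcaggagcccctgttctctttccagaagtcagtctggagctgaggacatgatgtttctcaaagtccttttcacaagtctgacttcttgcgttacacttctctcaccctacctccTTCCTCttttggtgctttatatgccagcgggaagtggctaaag
Cd300lb, GRCm38.p6 chr11:114934372-114934621, minus strand: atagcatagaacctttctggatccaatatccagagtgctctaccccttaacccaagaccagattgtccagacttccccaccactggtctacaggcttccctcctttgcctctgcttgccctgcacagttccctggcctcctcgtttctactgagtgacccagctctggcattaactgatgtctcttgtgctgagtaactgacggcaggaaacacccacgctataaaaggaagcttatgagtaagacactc
Cd300c2, GRCm38.p6 chr11:115001881-115002130, minus strand: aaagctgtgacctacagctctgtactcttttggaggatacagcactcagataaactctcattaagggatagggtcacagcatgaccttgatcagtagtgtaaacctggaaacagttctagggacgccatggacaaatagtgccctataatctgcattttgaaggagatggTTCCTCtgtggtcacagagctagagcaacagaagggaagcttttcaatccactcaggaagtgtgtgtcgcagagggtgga
Pirb, GRCm38.p6 chr7:3720383-3720632, minus strand: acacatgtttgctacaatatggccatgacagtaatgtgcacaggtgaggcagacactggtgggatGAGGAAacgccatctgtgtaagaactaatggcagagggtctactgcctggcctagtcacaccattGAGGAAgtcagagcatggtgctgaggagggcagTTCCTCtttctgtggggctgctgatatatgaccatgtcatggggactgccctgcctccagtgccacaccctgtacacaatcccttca

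GAGGAA was found on either strand in 5 of the 6 promoters matched, all but that of Cd300lb, and in 23.3% of all 32851 RefSeq promoter windows of 250 bases. The longer form GAGGAAGT, whose matches are also counted among those of GAGGAA, was found in Cd300ld and Pirb and in 2.44% of all windows. The myeloid C/EBP motif TTGCNNAA was found in Cd300a and in 9.56% of all windows, and the RUNX core TGTGGT in Cd300c2 and in 14% of all windows. These are matches of letters and no evidence of binding.

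Total counts ran from 20354677 to 25059371 per library, so that 3 counts amount to less than 0.15 CPM (counts scaled to library size by TMM). The lowest value of any of the 9 genes was 121 counts, for Lst1. All 8 pan-leukocyte and all 12 monocyte and macrophage markers were detected in each group, as were all 8 keratinocyte and all 7 fibroblast markers. The skeletal muscle list differed between groups, with a summed level of 5487 to 12864 CPM in TD, 2502 to 4981 CPM in Strain and 3687 to 8209 CPM in No Strain. Adipocyte markers fell in 5 of 8 genes in Strain and 8 of 8 in No Strain, with summed levels of 1133 to 2617 CPM in TD, 790 to 1199 CPM in Strain and 563 to 863 CPM in No Strain. T and NK cell markers rose in 4 of 8 genes in Strain and 3 of 8 in No Strain, with summed levels of 19.8 to 29.2 CPM in TD, 31.8 to 82.8 CPM in Strain and 37.4 to 62.2 CPM in No Strain. Counts of markers that rose or fell, here and below, are to be read against all genes tested. Of those, 6.2% rose and 6.41% fell in Strain, and 9.35% rose and 8.4% fell in No Strain. The part of the cell types above in the receptor values was not tested, apart from a model with the skeletal muscle markers. In Strain against TD that model cannot separate muscle from group, because the muscle levels did not overlap. TD replicate 1 stood apart: Cd300a, Cd300lb, Cd300c2 and Lilrb4a were all far below the other TD libraries there. Most TD libraries carry the letter R in their titles and most patch libraries the letter L, whose meaning is not stated. TD replicate 1 is the only TD library with the letter L. Within TD the letter therefore cannot be told from what set that library apart.

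**Figure D1:**
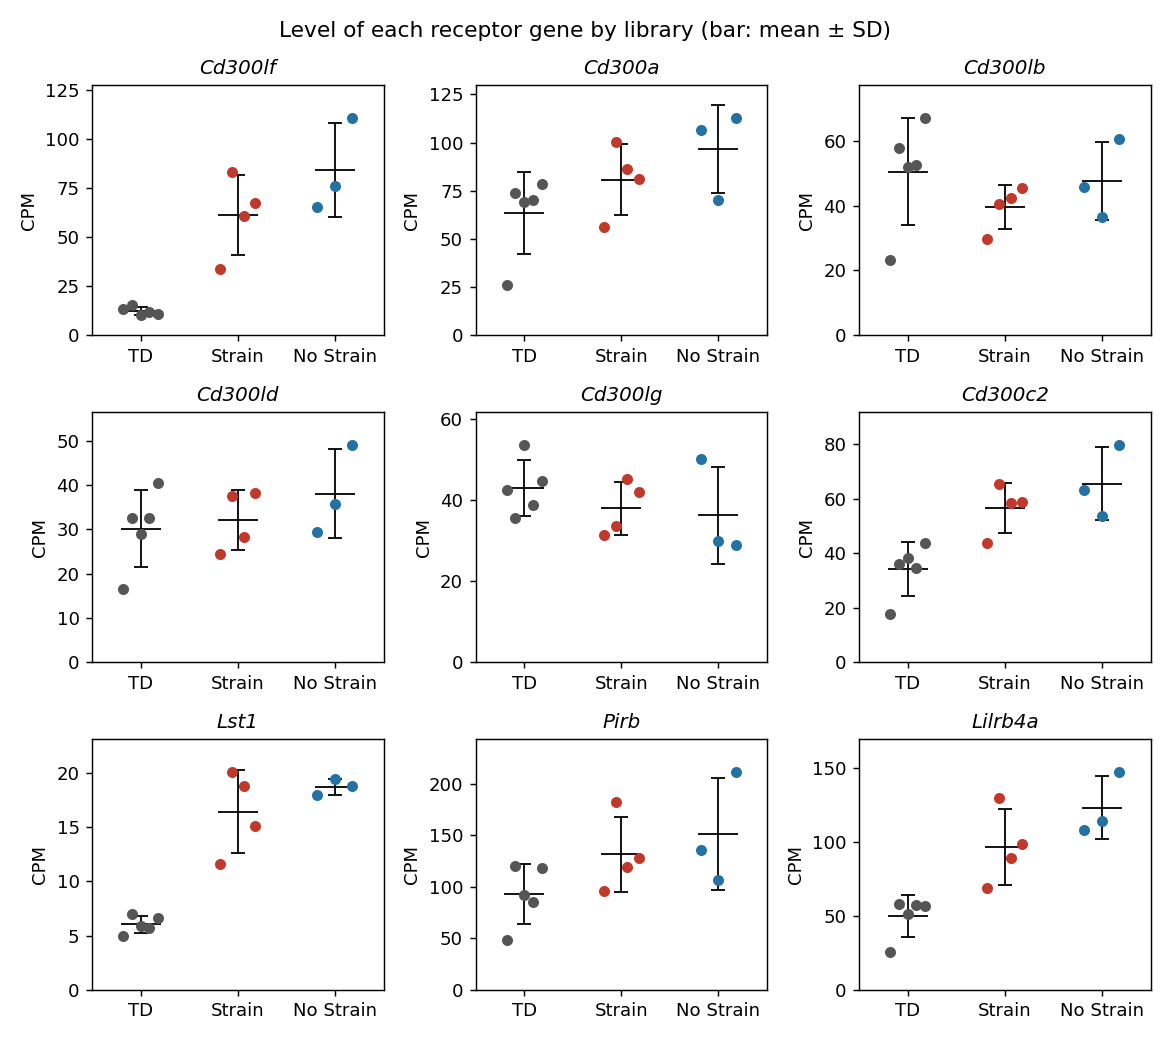
Level of each of the 9 receptor genes in CPM (vertical axis from 0) in the 5 TD, 4 Strain and 3 No Strain libraries; points are libraries and bars the mean ± SD. Cd300lf, Lst1 and Lilrb4a were higher in all 7 patch libraries than in all 5 TD libraries, and TD replicate 1 is the lowest TD point for 7 of the 9 genes.

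Among the long-tailed, inhibitory CD300 genes, Cd300lf encodes CD300f, also called CLM-1, an ITIM-bearing receptor for phosphatidylserine, ceramide and sphingomyelin that also serves as the entry receptor of murine norovirus. Its level was 13.6, 15.5, 10.5, 11.7 and 10.8 CPM in TD replicates 1 to 5. It was 33.9, 82.9, 60.9 and 67.2 CPM in Strain replicates 1 to 4 and 65.2, 75.9 and 110.7 CPM in No Strain replicates 1 to 3. No patch library overlapped with TD, and within the patch groups Strain replicate 1 was lowest and No Strain replicate 3 highest. As a description, since this gene was chosen for it, the log2 fold change against TD was 2.30 ± 0.243 (SE) in Strain and 2.76 ± 0.257 (SE) in No Strain. When the skeletal muscle markers were added to the model, the first of these was 2.87.

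Cd300a encodes the other ITIM-bearing member, which restrains mast cells, neutrophils and monocytes. It had 26.3, 73.6, 69.2, 70.1 and 78.7 CPM in the TD libraries, 55.9, 100.1, 86.1 and 81.2 CPM in Strain and 106.5, 70.4 and 113.0 CPM in No Strain. The groups overlapped, and the single low value was TD replicate 1. The log2 fold change was 0.35 ± 0.284 (SE) in Strain (edgeR adjusted p = 0.449) and 0.60 ± 0.306 (SE) in No Strain (edgeR adjusted p = 0.193). Without TD replicate 1 these values were 0.15 and 0.41.

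Of the short-tailed, activating genes, Cd300c2 (the receptor known as CLM-4 or MAIR-II) had the clearest difference. Its level was 17.6, 36.2, 38.3, 34.8 and 43.7 CPM in TD, 43.6, 65.4, 58.2 and 58.7 CPM in Strain and 63.2, 53.6 and 79.7 CPM in No Strain. All No Strain libraries lay above all TD libraries, and in Strain only replicate 1 fell within the TD range. Cd300c2 rose in No Strain by a log2 fold change of 0.94 ± 0.240 (SE) (edgeR adjusted p = 0.0228). In Strain the log2 fold change of 0.73 ± 0.224 (SE) just missed the threshold (edgeR adjusted p = 0.0545). Without TD replicate 1 the Strain value was 0.56 and passed (edgeR adjusted p = 0.0399), as it did without TD replicate 5 (adjusted p = 0.0471). The No Strain call was lost without No Strain replicate 1 (adjusted p = 0.0581) or replicate 3 (adjusted p = 0.0984).

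Cd300lb encodes CLM-7, a DAP12-coupled receptor. It had 23.2, 57.9, 51.8, 52.5 and 67.2 CPM in TD, 29.8, 40.5, 42.4 and 45.3 CPM in Strain and 45.9, 36.6 and 60.5 CPM in No Strain. Of the 7 patch libraries, 6 lay below the second-lowest TD value. Its log2 fold change was -0.35 ± 0.262 (SE) in Strain (edgeR adjusted p = 0.399) and -0.08 ± 0.284 (SE) in No Strain (edgeR adjusted p = 0.871), so neither difference passed. Without TD replicate 1 they were -0.54 and -0.27 (edgeR adjusted p = 0.0701 and 0.353).

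Cd300ld encodes CLM-5, which couples to the Fc receptor gamma chain. It had 16.5, 32.5, 28.9, 32.6 and 40.5 CPM in TD, 24.4, 37.6, 28.3 and 38.2 CPM in Strain and 29.5, 35.7 and 49.1 CPM in No Strain. The groups overlapped throughout. The log2 fold change was 0.09 ± 0.239 (SE) in Strain (edgeR adjusted p = 0.842) and 0.33 ± 0.258 (SE) in No Strain (edgeR adjusted p = 0.398), and the sign of the Strain value turned to -0.07 without TD replicate 1.

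Cd300lg differs from the rest of its family in being a molecule of vascular endothelium (CLM-9 or nepmucin), where it helps lymphocytes to bind and cross. It had 42.5, 35.5, 53.7, 38.8 and 44.8 CPM in TD, 31.5, 33.6, 45.2 and 41.9 CPM in Strain and 50.1, 29.9 and 28.9 CPM in No Strain. The No Strain libraries were split, with replicate 1 near the top of the TD range and the other two below it. The log2 fold change was -0.18 ± 0.183 (SE) in Strain (edgeR adjusted p = 0.555) and -0.25 ± 0.20 (SE) in No Strain (edgeR adjusted p = 0.425). The endothelial list moved the other way: 6 of its 12 genes rose in Strain and 7 in No Strain, and its summed level was 604 to 731 CPM in TD, 773 to 1109 CPM in Strain and 850 to 1015 CPM in No Strain. Emcn, an endothelial sialomucin of that list, had log2 fold changes of 1.06 in Strain (edgeR adjusted p = 0.0037) and 0.93 in No Strain (edgeR adjusted p = 0.00348). The CPM of Cd300lg was 5.88% to 8.82% of the endothelial sum in TD, 3.65% to 5.34% in Strain and 2.84% to 5.81% in No Strain, with no overlap with TD. The same held, in the lower direction, for 36.7% of all genes in Strain and 51.6% in No Strain, so the share itself says little about Cd300lg.

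Lst1 encodes a small transmembrane protein of leukocytes from the major histocompatibility complex region, described as an inhibitor of lymphocyte growth. It had 4.98, 7.03, 5.86, 5.73 and 6.62 CPM in TD, 11.6, 20.1, 18.8 and 15.2 CPM in Strain and 18.002, 19.4 and 18.8 CPM in No Strain. No patch library overlapped with TD. The No Strain libraries were closely grouped, with a coefficient of variation of 3.83%, against 23.3% in Strain and 13.2% in TD. As a description, the log2 fold change against TD was 1.44 ± 0.154 (SE) in Strain and 1.63 ± 0.163 (SE) in No Strain.

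Pirb and Lilrb4a encode inhibitory receptors of the leukocyte immunoglobulin-like family: PIR-B binds class I histocompatibility molecules, and Lilrb4a encodes gp49B of mast cells, neutrophils and macrophages. Lilrb4a had 25.2, 57.8, 51.3, 57.3 and 56.8 CPM in TD, 68.4, 129.5, 89.1 and 98.3 CPM in Strain and 107.6, 113.7 and 147.1 CPM in No Strain. All 7 patch libraries lay above all 5 TD libraries. Lilrb4a rose in Strain by a log2 fold change of 0.96 ± 0.241 (SE) (edgeR adjusted p = 0.0282) and in No Strain by 1.31 ± 0.258 (SE) (edgeR adjusted p = 0.00817). With TD replicate 1 left out these were 0.79 and 1.14 (edgeR adjusted p = 0.0247 and 0.00746). The No Strain call held in each of 21 other fits (other scalings, filters, tests, covariates and left-out libraries), with adjusted p from 5.83e-05 to 0.0484. The Strain call was lost in 7 of 21. Its edgeR adjusted p was 0.0968 without Strain replicate 2, 0.0521 without Strain replicate 4, 0.0588 without TD replicate 3 and 0.0506 without TD replicate 4. With the skeletal muscle markers in the model it was 0.470. Over 9 other scalings, filters, tests and covariates, that model included, the log2 fold change in Strain ran from 0.94 to 1.11. The mean log2 CPM of the muscle markers was 7.58 to 8.73 in TD and 6.42 to 7.28 in Strain. Without overlap, that model cannot tell the muscle markers from the group.

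Pirb had 48.5, 120.2, 91.8, 85.0 and 118.2 CPM in TD, 95.6, 182.4, 119.4 and 128.0 CPM in Strain and 136.1, 106.1 and 211.6 CPM in No Strain. The groups overlapped, although 2 of the 4 Strain and 2 of the 3 No Strain libraries lay above every TD library. Its log2 fold change was 0.50 ± 0.282 (SE) in Strain (edgeR adjusted p = 0.261) and 0.71 ± 0.303 (SE) in No Strain (edgeR adjusted p = 0.129), and 0.34 and 0.54 with TD replicate 1 left out. Both genes have near copies. Of the stretches of 50 bases in the annotated transcripts of Pirb, 34% also occur in another gene, and for Lilrb4a 46.7% do, most often in Gm49339, a gene with 0 to 4 counts per library whose exons overlap those of Lilrb4a. How shared reads were counted is not given in the sources used here, so the levels of Pirb and Lilrb4a are uncertain. At most 7.16% of stretches were shared for any other of the 9 genes.

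**Figure D2:**
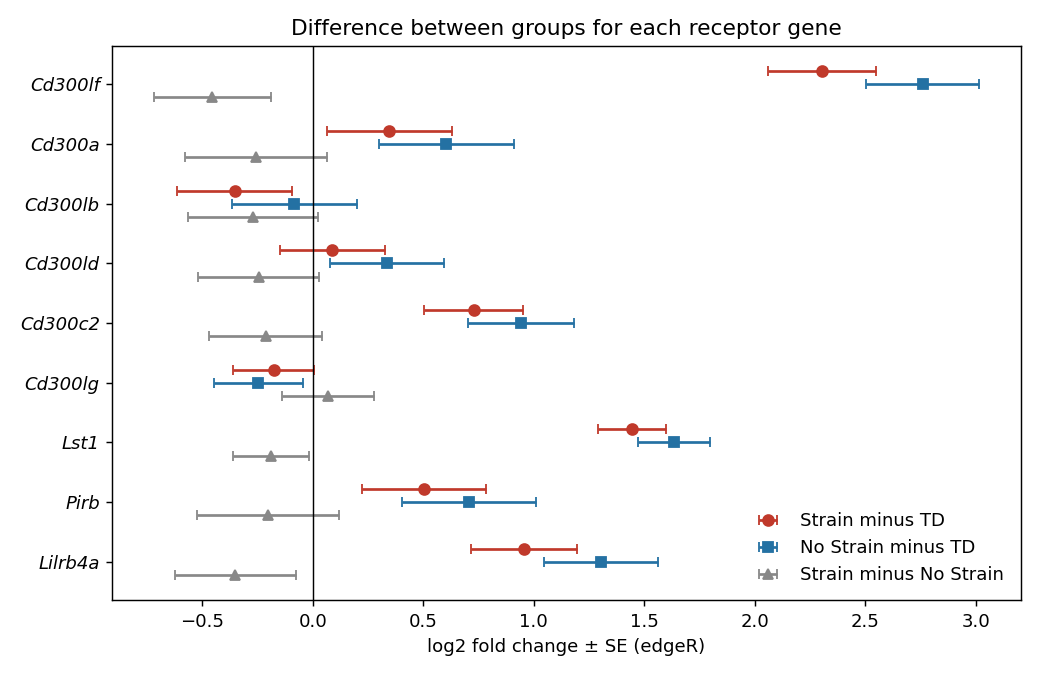
Log2 fold change (horizontal axis) with its standard error for each of the 9 genes in 3 comparisons, from 1 edgeR fit over all 12 libraries. Cd300lf, Lst1 and Lilrb4a lie farthest to the right against TD, Cd300lb and Cd300lg lie left of 0, and all differences between Strain and No Strain lie within 0.46 of 0.

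Among the 7 genes that joined by family, 1 rose and 0 fell in Strain against TD, where 12.6% of all 18618 genes tested passed (6.2% higher, 6.41% lower). In No Strain against TD 2 rose and 0 fell, where 17.8% of all genes passed (9.35% higher, 8.4% lower). The median log2 fold change of these 7 genes was 0.35 in Strain and 0.60 in No Strain, against 0.018 and 0.0045 over all genes. With the skeletal muscle markers in the model, 0 of the 7 passed in Strain, where 1 of all genes did, and 1 of the 7 in No Strain, Lilrb4a. Both comparisons share the 5 TD libraries. Counting all 9 genes, groups did not overlap for 3 genes in Strain against TD and for 4 in No Strain against TD, always with the patch group higher, where 14.6% and 26.7% of all genes did not overlap (7.47% and 14.3% higher, 7.15% and 12.5% lower). For 3 of the 9 genes all 7 patch libraries lay above all 5 TD libraries, as they did for 5.73% of all genes. Since Cd300lf and Lst1 are among them by choice, nothing is read from those counts.

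The comparison of Strain with No Strain, in which both groups wore a patch, addresses the imposed strain itself. None of the 9 genes passed there: edgeR adjusted p ran from 0.881 for Cd300lf to 0.989 for Cd300lg, 0 of the 9 had an unadjusted p under 0.05, and DESeq2 called 0 of the 9 as well. Across all genes 0% passed in edgeR, and 5.61% had an unadjusted p under 0.05. Log2 fold changes were below 0 for 8 of the 9, from -0.46 ± 0.265 (SE) for Cd300lf to -0.19 ± 0.171 (SE) for Lst1, and 0.07 ± 0.208 (SE) for Cd300lg. The median over all genes was 0.0084. As 6 of the 9 genes varied together from library to library, these signs are not separate observations. Cd300lf and Lst1 were chosen by a p-value that used these same Strain libraries, so their results here are not free of that choice. For all 9 genes the Strain and No Strain libraries overlapped, against 5.62% of all genes without overlap. A p that misses the threshold does not show that the groups had equal levels.

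Levels can be compared between genes only per length of transcript. On the RPKM scale (CPM per kilobase of annotated exon), Cd300c2 was highest and Cd300lf lowest in TD, at 26.7 ± 7.73 (SD, n = 5) and 2.41 ± 0.407 (SD, n = 5). The 7 genes between them ran from Pirb at 20.7, Cd300lb at 17.3, Cd300lg at 15.7, Lst1 at 14.6, Cd300a at 13.4 and Cd300ld at 11.4 to Lilrb4a at 9.50 RPKM. In that order neighbours overlapped in their libraries, except that Cd300lf lay wholly below Lilrb4a. In No Strain the order was Cd300c2 at 51.4, Lst1 at 45.2, Pirb at 33.8, Lilrb4a at 23.5, Cd300a at 20.4, Cd300lb and Cd300lf both at 16.3, Cd300ld at 14.4 and Cd300lg at 13.3 RPKM, and every pair of neighbours overlapped. In Strain it was Cd300c2 at 44.3, Lst1 at 39.6, Pirb at 29.4, Lilrb4a at 18.4, Cd300a at 17.1, Cd300lg at 13.9, Cd300lb at 13.5, Cd300ld at 12.2 and Cd300lf at 11.9 RPKM, again with every pair of neighbours overlapping. Under both patches the libraries of Cd300lf thus overlapped those of Cd300ld, below which all of them lay in TD.

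The genes also differed relative to one another within each library, a comparison that no scaling of libraries can alter. Cd300lb was used as the reference because its fold changes against TD were below 0, a choice made after its values were seen, so these ratios are a description. The CPM ratio of Lilrb4a to Cd300lb was 1.09, 0.999, 0.990, 1.09 and 0.846 in TD, 2.30, 3.20, 2.10 and 2.17 in Strain and 2.34, 3.10 and 2.43 in No Strain. TD replicate 1 was not apart on this measure. The ratio of Cd300c2 to Cd300lb, 2 short-tailed genes of the same cluster, was 0.758, 0.625, 0.740, 0.663 and 0.651 in TD, 1.46, 1.61, 1.37 and 1.30 in Strain and 1.38, 1.46 and 1.32 in No Strain.

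The ratio of the inhibitory Cd300a to Cd300lb ran from 1.14 to 1.34 in TD, from 1.79 to 2.47 in Strain and from 1.87 to 2.32 in No Strain, although neither gene passed the test on its own. For Pirb it ran from 1.62 to 2.09 in TD, from 2.82 to 4.50 in Strain and from 2.90 to 3.50 in No Strain. For Lst1 it ran from 0.0986 to 0.215, from 0.334 to 0.497 and from 0.311 to 0.530 in the same order. For Cd300lf it ran from 0.161 to 0.588, from 1.14 to 2.05 and from 1.42 to 2.07, with the highest TD value in replicate 1. In total 6 of 8 ratios to Cd300lb were higher in all 7 patch libraries than in all 5 TD libraries, where 1.63% of all other genes tested were. Since Cd300lf and Lst1 are among the 6 by choice and Cd300lb was taken for its low values, nothing is read from that count. Taken group by group, 2.43% of genes had ratios wholly above TD in Strain and 3.12% in No Strain, and 0.666% and 2.44% had ratios wholly below. The exceptions were Cd300ld, with 0.559 to 0.714 in TD and 0.643 to 0.974 in No Strain, and the endothelial Cd300lg, with 0.613 to 1.83 in TD and 0.477 to 1.09 in No Strain. Of 36 pairs among the 9 genes, 0 had ratios that separated Strain from No Strain. A share over all genes was computed only for ratios to Cd300lb, not for the other pairs. Of all genes, 2.23% had ratios to Cd300lb wholly above No Strain in Strain and 0.822% wholly below.

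**Figure D3:**
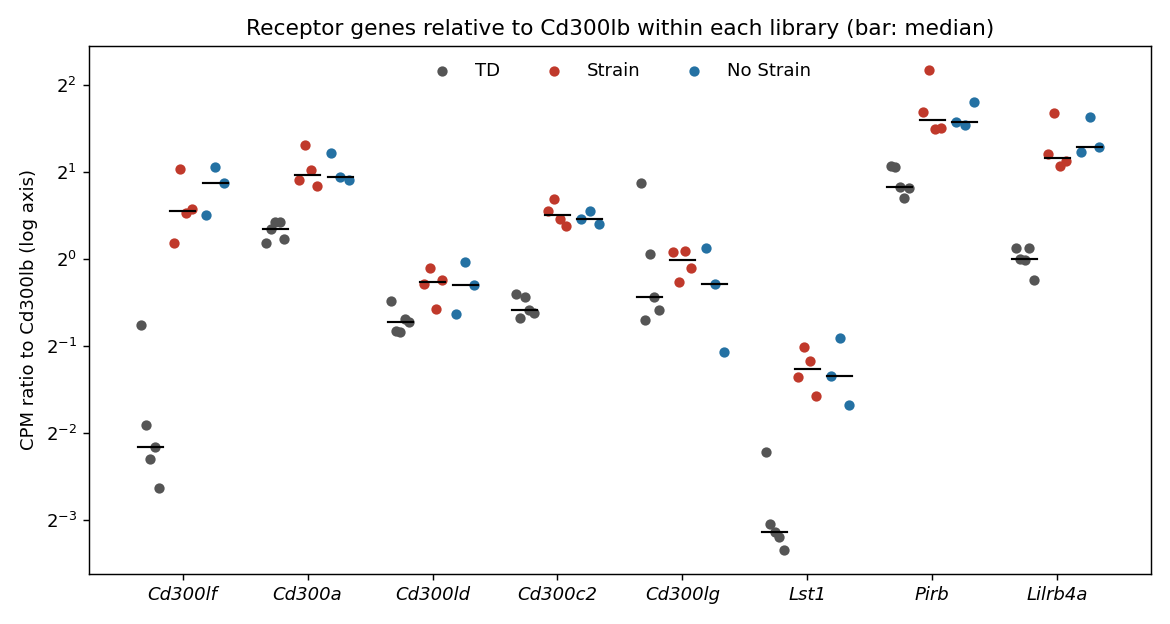
CPM of each of the other 8 genes divided by that of Cd300lb in the same library (vertical axis, log scale, no unit), for TD, Strain and No Strain; points are libraries and bars medians. For 6 genes all patch libraries lie above all TD libraries, with Lilrb4a moving from 0.846 to 1.09 in TD to between 2.10 and 3.20 under patches, while Cd300ld and Cd300lg overlap.

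The genes also differed in their relation to the leukocyte markers. The summed level of 8 pan-leukocyte markers was 539 to 1138 CPM in TD, 869 to 1537 CPM in Strain and 1213 to 1608 CPM in No Strain, and 3 and 5 of the 8 rose in Strain and No Strain. Lilrb4a amounted to 4.67% to 6.32% of that sum in TD, 7.38% to 8.79% in Strain and 8.16% to 9.38% in No Strain. Cd300c2 amounted to 3.26% to 4.03% in TD, 4.26% to 5.25% in Strain and 4.42% to 4.96% in No Strain. Neither overlapped with TD, and such a higher share was found for 0.779% of all genes in Strain and 1.61% in No Strain. Other denominators gave other results. Of the monocyte and macrophage sum, Lilrb4a amounted to 0.990% to 1.420% in TD, 1.425% to 1.77% in Strain and 1.83% to 2.18% in No Strain, with TD and Strain barely apart, while Cd300c2 overlapped, with medians of 0.800%, 0.936% and 1.03%. Of the neutrophil sum both genes overlapped, with lower medians under patches: for Lilrb4a 10% in TD, 4.51% in Strain and 3.54% in No Strain, and for Cd300c2 7.18%, 2.59% and 1.92%. That sum itself ran from 821 to 8626 CPM within Strain, so shares of it varied widely there. Of the pan-leukocyte sum, Cd300lf amounted to 0.948% to 2.53% in TD, 3.90% to 6.00% in Strain and 4.94% to 6.89% in No Strain, as a description. For Cd300lf, too, the denominator mattered. Its medians were 0.288%, 1.08% and 1.38% of the monocyte and macrophage sum in TD, Strain and No Strain. Of the neutrophil sum they were 2.35%, 3.03% and 2.66%, and there all groups overlapped.

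Shares of Cd300a overlapped between all groups, at 4.88% to 7.73% in TD, 6.44% to 7.25% in Strain and 5.80% to 8.07% in No Strain. Pirb likewise had 9.01% to 12.1%, 9.90% to 11.9% and 8.75% to 13.2% in that order. Cd300lb amounted to 4.30% to 5.90% of the leukocyte sum in TD, 2.64% to 4.05% in Strain and 3.02% to 3.76% in No Strain. It did not overlap with TD, but shares below TD were common, with 7.12% of all genes in Strain and 45.2% in No Strain.

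Neutrophil markers moved with the patch groups as well. Of 14 markers, 10 rose in Strain and 8 in No Strain, where 6.2% and 9.35% of all genes rose. All 14 were detected in each group. Their sum was 446 to 1643 CPM in TD, 821 to 8626 CPM in Strain and 2117 to 5152 CPM in No Strain. Within Strain the sum did not follow Cd300lf: replicates 1 to 4 had 8626, 5794, 821 and 1451 CPM of neutrophil markers, and Cd300lf was lowest in replicate 1, where the neutrophil sum was highest. The mean log2 CPM of the same markers, which weighs each gene equally, was 4.22, 3.90, 3.82 and 3.58 in these replicates. On that measure the replicates lay closer together, so their distance in the sum depends on how the genes are weighted. In TD, replicate 1 had the highest neutrophil sum, 1643 CPM against 446 to 623 CPM in the others, and the lowest pan-leukocyte sum, 539 CPM against 907 to 1138 CPM. Of the monocyte and macrophage markers, 2 of 12 rose in Strain and 3 of 12 in No Strain, against the same shares of all genes. Their summed level was 2543 to 5465 CPM in TD, 4797 to 7889 CPM in Strain and 5225 to 8043 CPM in No Strain. Ccr2, a chemokine receptor of recruited monocytes, had log2 fold changes of 1.16 in Strain (edgeR adjusted p = 0.0128) and 0.90 in No Strain (edgeR adjusted p = 0.0301). The mast cell list, a cell type that carries Cd300a and Lilrb4a, had summed levels of 251 to 493 CPM in TD, 288 to 428 CPM in Strain and 309 to 405 CPM in No Strain, and its median log2 fold change was -0.23 in Strain and -0.50 in No Strain. Of its 7 genes 1, Hdc, rose in both comparisons and 0 fell. The part of neutrophils, macrophages and mast cells in the receptor values was not tested either.

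Within groups, most of the receptor genes varied together from library to library, and Cd300lg did not. Each library's deviation of log2 CPM from its group mean was correlated between genes over 12 libraries, as a description in which points share a library and its scaling. Among Cd300a, Cd300lb, Cd300ld, Cd300c2, Pirb and Lilrb4a, the 15 Pearson correlations ran from 0.82 to 0.97, with TD replicate 1 low in all 6 genes. Over the 11 libraries without TD replicate 1, a choice made after the data were seen, they ran from 0.55 to 0.91. Those of Lst1 with these 6 ran from 0.58 to 0.72, and from 0.46 to 0.72 without that library.

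The place of Cd300lf depended on that single library. Its correlations with the 6 genes ran from 0.24 to 0.48 over 12 libraries and from 0.66 to 0.92 without TD replicate 1, where the highest was with Lilrb4a. Cd300lg had correlations of -0.25 to 0.16 with the other 8 genes over 12 libraries, and of -0.34 to 0.29 without it. Cd300lb and Cd300c2 varied together (0.97 with and 0.91 without TD replicate 1) while the ratio between them differed between TD and the patch groups.

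**Figure D4:**
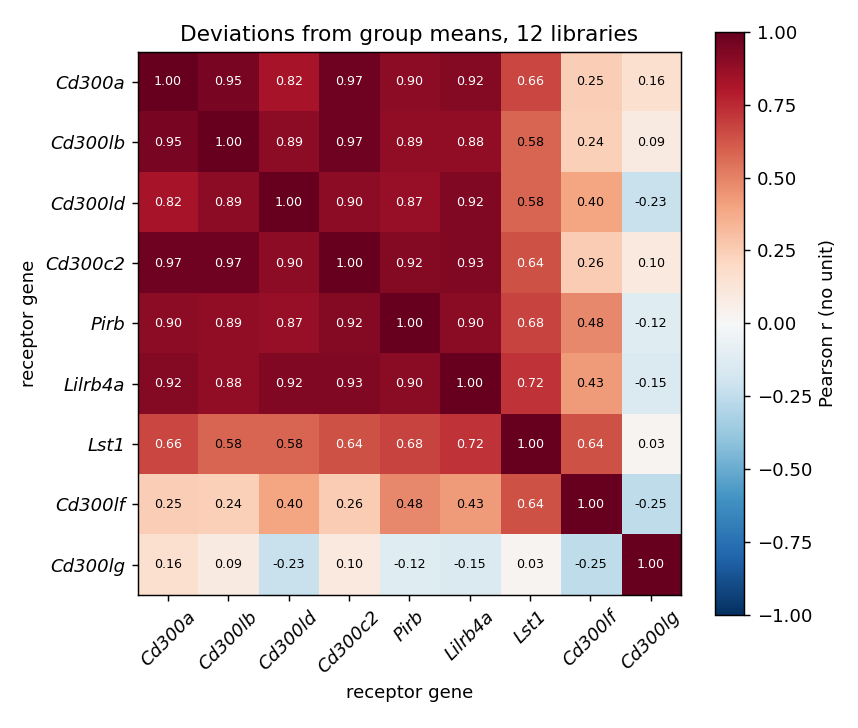
Pearson correlation (colour and printed value, no unit) between each pair of the 9 genes, both axes listing genes, of deviations from group means in log2 CPM over 12 libraries. The block of 6 genes at the upper left holds values from 0.82 to 0.97, and Cd300lg stays between -0.25 and 0.16. In a version without TD replicate 1, not drawn here, the low values of Cd300lf with these 6 rise to between 0.66 and 0.92.

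Of 12418 genes with a mean of at least 5 CPM, those with deviations most like each receptor gene were listed, 3 for each. They are the highest of many correlations over 12 libraries, so high values follow from the choice. No test was made, and they are a description. With TD replicate 1 left out, 12 of these 27 genes were still among the first 3, and the correlations of all 27 ran from 0.871 to 0.977. Cd300lf was closest to Afg1l (0.93), Fpr1 (0.89), a receptor for bacterial formyl peptides on neutrophils and monocytes, and Necap1 (0.89). Fpr1 also had similar log2 fold changes against TD, 2.24 in Strain and 2.72 in No Strain, while those of Afg1l were -0.17 and -0.26. Those of Necap1 were 0.06 and 0.18. Without TD replicate 1, Fpr1 ranked 16 in likeness to Cd300lf. Cd300lb was closest to Fnip2 (0.99), Adam8 (0.99), a leukocyte metalloprotease, and Sirpa (0.98), an inhibitory receptor that binds CD47. Their log2 fold changes were 0.60, 0.016 and 0.40 in Strain and 0.81, 0.68 and 0.57 in No Strain. Those of Cd300lb itself were below 0. Cd300c2 was closest to Cd84 (0.98), Fnip2 (0.98) and Itgb2 (0.98), the leukocyte beta-2 integrin. Cd300a was closest to Tlr13 (0.99), Tm6sf1 (0.98) and Fermt3 (0.98), and Cd300ld to Crlf3 (0.96), Plxnd1 (0.94) and Tbc1d10b (0.94).

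Pirb was closest to Nrros (0.98), Fcgr3 (0.97), an activating Fc receptor, and Mpp1 (0.97), and Lilrb4a to Pla2g7 (0.98), Nlrc4 (0.97) and the mast cell immunoreceptor gene Milr1 (0.97). Pla2g7, a secreted phospholipase of macrophages, also had log2 fold changes close to those of Lilrb4a, 0.96 in Strain and 1.32 in No Strain. Those of Milr1 were 0.74 and 1.02, and those of Nlrc4 only 0.36 and 0.34. Lst1 was closest to Ikbke (0.95), Kmt2a (0.94) and Oas2 (0.93). Cd300lg was closest to Sema3g (0.95) and Gpihbp1 (0.90), both genes of vascular endothelium, and to Exosc9 (0.90).

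The other genes of these receptor systems were counted in lists, each to be read against the 6.2% of all genes that rose in Strain and the 9.35% that rose in No Strain. Those shares belong to the fit over 12 libraries, and counts without TD replicate 1 have no such share beside them. With 1 library left out, calls over all genes in either direction ran from 882 to 2458 in Strain and from 1505 to 3415 in No Strain. Nothing about a list is therefore read from a change in its count without TD replicate 1. Of 6 other CD300 genes, 1 rose in Strain and 0 in No Strain, with and without TD replicate 1, counts too small to set against those shares. That gene was Cd300e, an activating receptor of monocytes, with 2, 69, 101 and 25 counts in Strain replicates 1 to 4, 37, 23 and 18 counts in No Strain replicates 1 to 3, and 3, 8, 4, 9 and 4 counts in TD replicates 1 to 5. Strain replicate 1 lay below all TD libraries while the other 3 lay above them. Its log2 fold change was 3.16 ± 0.727 (SE) in Strain (edgeR adjusted p = 0.0203) and 2.31 ± 0.800 (SE) in No Strain (edgeR adjusted p = 0.0674).

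Of 7 other LILR, PIR and LAIR genes, 3 rose in Strain and 5 in No Strain, against 6.2% and 9.35% of all genes. With TD replicate 1 left out, 2 and 4 of the 7 rose. Lair1, an inhibitory collagen receptor, rose by 1.48 and 1.33 on the log2 scale (edgeR adjusted p = 0.0166 and 0.0240). Lilr4b, the activating partner of Lilrb4a and its near copy, rose by 0.88 and 1.26 (edgeR adjusted p = 0.0393 and 0.0103), and Lilra6 by 0.85 and 1.05 (edgeR adjusted p = 0.0445 and 0.0215). Lilra5 rose in No Strain by 1.56 (edgeR adjusted p = 0.0397) and had 0.75 in Strain (adjusted p = 0.307), at a mean of only 0.321 CPM in TD. Like Lilrb4a, the genes of this family with near copies have uncertain counts.

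Of 30 other paired myeloid receptors tested, 16 rose and 0 fell in Strain, and 19 rose and 0 fell in No Strain, with median log2 fold changes of 0.86 and 1.01, against 6.2% and 9.35% of all genes that rose. Clec4e (Mincle), which senses glycolipids and dead cells, rose by 2.52 and 2.78 (edgeR adjusted p = 0.00715 and 0.00348). Pilra, an inhibitory receptor for sialylated ligands, rose by 1.47 and 1.76 (edgeR adjusted p = 0.00386 and 0.00117). Trem3 rose by 1.35 and 2.17 (edgeR adjusted p = 0.0252 and 0.00355) and Sirpb1b by 1.30 and 1.79 (edgeR adjusted p = 0.0141 and 0.00374). The level of Trem3 was low, with a mean of 0.899 CPM in TD, and its Strain libraries overlapped with TD. Without TD replicate 1, a setting added after the data were seen, 11 of the 30 rose in Strain and 19 in No Strain. The share of all genes that rose in that fit is not given here.

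Among 12 adaptors and activating kinases, 7 rose in Strain and 8 in No Strain, and 0 fell, where 6.2% and 9.35% of all genes rose. The Fc receptor gamma chain gene Fcer1g, which serves Cd300ld, rose by 0.85 and 1.10 (edgeR adjusted p = 0.0163 and 0.00564). The Src-family kinase gene Fgr rose by 1.16 and 1.42 (edgeR adjusted p = 0.0160 and 0.00650), Vav1 by 0.81 and 1.12 (edgeR adjusted p = 0.0247 and 0.00664) and the DAP10 gene Hcst by 0.73 and 1.07 (edgeR adjusted p = 0.0317 and 0.00675). Without TD replicate 1, 4 of the 12 rose in Strain and 8 in No Strain.

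Of 10 ITIM-binding phosphatases and adaptors, 0 rose in either comparison and 1 fell in Strain, where 6.41% of all genes fell. It was Ptpn11, the SHP-2 gene, at -0.20 ± 0.0506 (SE) (edgeR adjusted p = 0.0274) in Strain and -0.12 in No Strain (edgeR adjusted p = 0.164). With TD replicate 1 left out, 1 of these 10 rose in No Strain. Of 12 ligands and partner receptors tested, 1 rose in Strain, near the 6.2% of all genes, and 5 in No Strain, where 9.35% of all genes rose. Tlr2 rose by 1.27 and 1.31 (edgeR adjusted p = 0.0233 and 0.0197). Il4ra, the interleukin-4 receptor chain to which CD300f binds, rose in No Strain by 0.81 (edgeR adjusted p = 0.0148) and had 0.22 in Strain (adjusted p = 0.426). The class I genes H2-K1 and H2-D1, of the kind PIR-B binds, rose in No Strain by 0.69 and 0.70 (edgeR adjusted p = 0.0361 and 0.0365) and had 0.59 and 0.57 in Strain (adjusted p = 0.0592 and 0.0708). When TD replicate 1 was left out, 2 of these 12 rose in No Strain. In Strain against No Strain 0 genes of any of these lists passed.

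**Figure D5:**
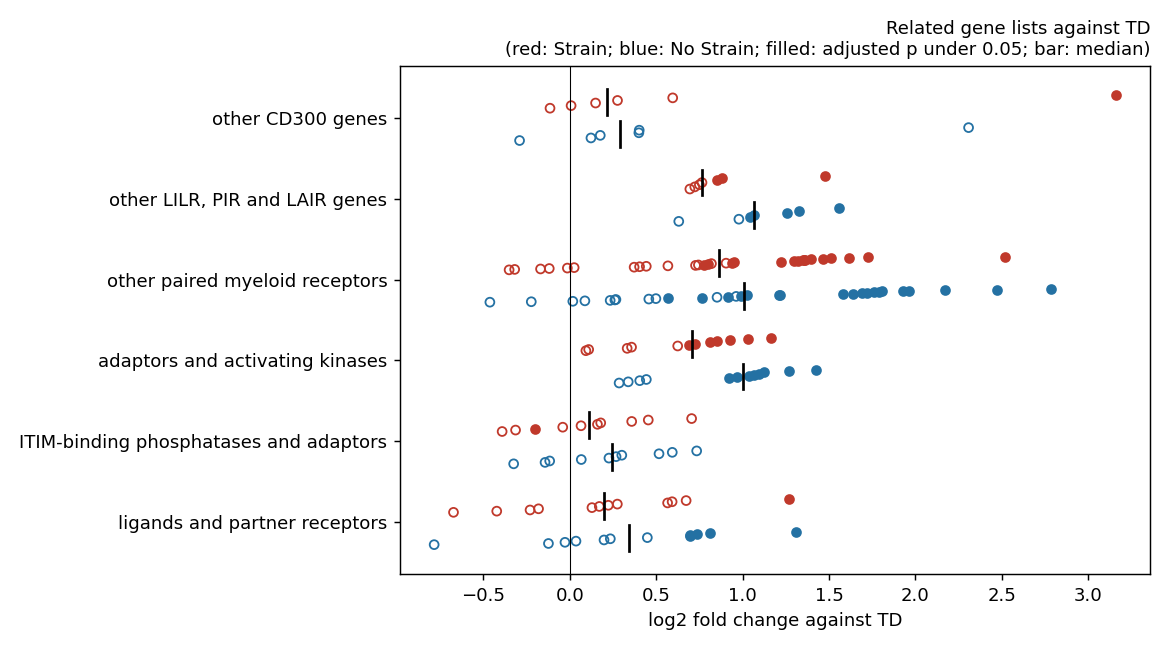
Log2 fold change against TD (horizontal axis) of each tested gene in 6 related lists (vertical axis), red for Strain and blue for No Strain; filled points passed an adjusted p of 0.05 and black bars are list medians. Among the other paired myeloid receptors 16 and 19 of 30 genes are filled, all to the right of 0, and the ITIM-binding list has 1 filled point, left of 0.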

How the data were processed

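RNA of 12 mouse wound libraries was sequenced after poly(A) selection. The deposited files hold raw counts per gene, and the submitters' processing notes name bcl2fastq 2.17, FastQC, cutadapt, STAR, featureCounts, DESeq2 and the build GRCm38; strand setting and the treatment of reads with several matches are not given in the sources used here. Depth was 20354677 to 25059371 counts per library, and 3 counts equal 0.117 to 0.149 CPM.

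Symbols and exon lengths came from GENCODE M21; 54079 of 54232 identifiers matched. Counts were filtered (filterByExpr, minimum count 10, minimum total 15), scaled by TMM and fitted over all 12 libraries with edgeR 4.0.16 (R 4.3.3, robust quasi-likelihood, Benjamini-Hochberg over 18618 genes, threshold 0.05). The fit was tested on simulated data. DESeq2 1.42.0 and limma 3.58.1 were alternatives, with other scalings, filters, covariates and each library left out. Within groups, 19 pairs of libraries differed by more than counting noise. Log2 CPM used a prior count of 2.

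The 9 genes and all lists were chosen with earlier results of these data known. Named list genes are up to 4 per list (2 per marker list) by smallest p, plus any that went the other way. Ptpn11 and Cd300e were single calls of their lists.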

Additional observations from a re-analysis of the deposited data

Results flagged for a closer look

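In 18 sets of log2 CPM values, one per gene in each of the TD and Strain groups, 4 had a library far from the rest by Dixon's test, and chance flags about 1 in 20. All 4 were TD replicate 1. Cd300a was at 4.72 there, with the nearest other TD library at 6.11. Cd300lb was at 4.54 against 5.70, Cd300c2 at 4.14 against 5.12 and Lilrb4a at 4.66 against 5.68. These genes varied together, so the 4 values are not separate events. The same library had the lowest pan-leukocyte marker sum of TD, 539 CPM, and the highest neutrophil marker sum, 1643 CPM, whose part in these values was not tested.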

How the results depend on the processing

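No paired analysis was possible because replicate numbers follow accession order and the title numbers are not shared between groups. Of 567 values (9 genes, 3 comparisons, 21 alternatives), 539 stayed the same, 13 changed sign, 11 lost and 3 gained a call, and 1 moved. Tested values stayed the same if they kept their direction and side of the threshold. Cd300lf and Lst1 against TD were not tested. They stayed the same if they kept their direction and changed by less than the larger within-group SD of log2 CPM. The 1 that moved, Cd300lf in Strain against TD, changed by more than that. For the rest of the settings below the cause was not tested. Within TD, the title letter sets replicate 1 against all other libraries. Among the 7 genes chosen by family, 1 was called in Strain against TD, but 2 with DESeq2, 0 with no filter on low counts, 0 with the title letter as covariate, 0 with the skeletal muscle list as covariate and 0 to 2 when one library was left out (0 without TD replicate 3 or 4 or Strain replicate 2 or 4, 2 without TD replicate 1 or 5). In No Strain against TD 2 were called, but 1 with no filter, 1 with the muscle covariate and 1 to 2 with one library left out (1 without No Strain replicate 1 or 3). Over all genes, 2349 were called in Strain against TD, but 1527 with no filter, 798 with the title letter, 1 with the muscle covariate and 882 to 2458 with one library left out. In No Strain against TD 3305 were called, but 2145 with the title letter, 856 with the muscle covariate and 1505 to 3415 with one library left out; with library totals alone 38.06% of calls were higher, against 52.68%. DESeq2 called 33 genes in Strain against No Strain, where edgeR called 0. Sign changes were confined to small values that did not pass. Cd300lb in No Strain against TD was 0.19 with the title letter and reached from -0.29 to 0.07 with one library left out (0.04 without TD replicate 5, 0.0713 without No Strain replicate 2). Cd300ld in Strain against TD was -0.0538 with the muscle covariate and ran from -0.0659 to 0.22 with one library left out (-0.0045 without Strain replicate 2, -0.0030 without Strain replicate 4). Cd300lg in Strain against TD was 0.0021 with the title letter and 0.17 with the muscle covariate. Cd300lg in Strain against No Strain ran from -0.0724 to 0.37 with one library left out (-0.0538 without No Strain replicate 2, -0.0327 without Strain replicate 3), and Pirb from -0.41 to 0.12 (0.12 without No Strain replicate 3).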
